A study of Homo sapiens with 3 samples.

Results

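The core pluripotency factors described here are 9 genes: NANOG, SOX2, POU5F1, LIN28A, LIN28B, SALL4, DPPA4, ZFP42 and PRDM14. They were taken by symbol from the platform annotation, which gave 17 of the 54675 probe sets (sets of short probes that together read 1 transcript). Of these, 16 name 1 gene, and the single POU5F1 probe set also names 3 POU5F1-like copies, so its signal cannot be assigned to POU5F1 alone. RNA came from khES3, a line of human embryonic stem cells that was undifferentiated and then kept for 5 hours in leucine-deprived, lysine-deprived or complete medium. Each of the 3 media has 1 array and no replicate, so nothing below was tested between media and no p-value is given. Only 1 cell line was used, and in a bulk culture fewer cells of a type and less RNA per cell cannot be told apart.

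Pluripotency, the capacity to form all tissues of the embryo, rests on a small circuit of transcription factors. POU5F1 (also called OCT4) and SOX2 bind DNA side by side and activate their own genes, NANOG and each other. The other members act around this core: LIN28A and LIN28B are RNA-binding proteins that block maturation of the let-7 microRNAs, SALL4, ZFP42 (REX1) and PRDM14 are zinc finger regulators, and DPPA4 is a chromatin-associated protein that works with DPPA2.

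The 250 bases before the gene start are shown for NANOG and SOX2, as targets of the OCT4 and SOX2 pair, and for ZFP42, which by its brightest probe set had the lowest log2 difference of the members after leucine removal. Sequences are from RefSeq on GRCh38.p14, plus strand, at chr12:7789152-7789401 for NANOG, chr3:181711675-181711924 for SOX2 and chr4:187995521-187995770 for ZFP42. Capitals mark matches to ATGCAAA, the core of the OCT4 octamer, or to ACAATG, a SOX core, on either strand.
NANOG: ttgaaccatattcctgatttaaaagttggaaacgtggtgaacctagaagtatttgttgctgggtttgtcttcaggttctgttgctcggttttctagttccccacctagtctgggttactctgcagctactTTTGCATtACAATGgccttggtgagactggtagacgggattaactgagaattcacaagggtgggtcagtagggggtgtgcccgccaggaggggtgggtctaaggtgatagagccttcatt
SOX2: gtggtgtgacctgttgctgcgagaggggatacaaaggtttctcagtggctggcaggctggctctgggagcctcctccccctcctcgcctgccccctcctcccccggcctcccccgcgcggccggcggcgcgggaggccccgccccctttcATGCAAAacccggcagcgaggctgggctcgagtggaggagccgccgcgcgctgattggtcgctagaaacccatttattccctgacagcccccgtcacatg
ZFP42: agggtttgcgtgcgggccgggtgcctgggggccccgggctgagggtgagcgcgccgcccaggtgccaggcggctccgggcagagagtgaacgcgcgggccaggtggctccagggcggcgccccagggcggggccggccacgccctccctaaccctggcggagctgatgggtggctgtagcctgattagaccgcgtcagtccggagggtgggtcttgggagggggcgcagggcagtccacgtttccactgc

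The NANOG window holds both motifs in close succession, the octamer core as TTTGCAT at positions -120 to -114 from the gene start and the SOX core at -112 to -107, the arrangement known for the joint OCT4 and SOX2 element. The SOX2 window holds the octamer core at -100 to -94 and no ACAATG. The ZFP42 window holds neither run of letters. Of the 9 members, 5 had entries in the promoter table; in the other windows searched, LIN28B had the SOX core at -140 to -135 in the first of its 2 entries and DPPA4 had no match. POU5F1, LIN28A, SALL4 and PRDM14 are named only. Across all 35116 promoters in the table, 3.94% held the octamer core in the same window, 9.29% the SOX core and 0.541% both. A match in these letters is a description of the sequence, and no binding was measured here.

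Values are MAS5 signals in arbitrary units, scaled by the authors so that each array has the same trimmed mean (500.1 on all 3). A probe set counted as above the floor where its signal exceeded the 40th percentile of its array, which was 56.7 on the leucine-deprived, 62.4 on the lysine-deprived and 54.6 on the complete-medium array. Differences are in log2 signal after flooring, so that 1 is a 2-fold difference. Signals of different probe sets depend on the probes and are not compared as amounts between genes. Percentiles and summed signals below rank or add them within an array. The sums include signals under the floor, rest mostly on the brightest probe sets and do not measure the amount of a cell type. The only measured error is the disagreement between probe sets of the same gene, with an SD of 0.49 after leucine removal, 0.57 after lysine removal and 0.58 between the deprivations (5981 genes). These SDs leave out the spread between cultures and pool genes of any brightness. In the brightest of 10 groups of kept probe sets, the differences themselves had an SD of 0.27, 0.35 and 0.25 in the same order.

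The label of undifferentiated cells was checked first. All 9 members were bright in every medium: the brightest probe set of each lay at or above percentile 95.2 of its array, the lowest being SALL4 on the lysine-deprived array. Of 10 endoderm markers, 6 were above the floor on the leucine-deprived, 9 on the lysine-deprived and 9 on the complete-medium array, with summed signals of 905, 1211 and 1426. Of 12 mesoderm markers the counts were 9, 7 and 8, with summed signals of 1908, 2522 and 1453. Of the primitive streak genes in that list, GSC and MIXL1 were under the floor on all 3 arrays, EOMES was under it on the lysine-deprived array, and TBXT was above it on all 3 (202, 454 and 171). Of 8 trophoblast markers with a probe set, 6, 3 and 3 were above the floor, with summed signals of 3056, 3471 and 2617. CDX2 and ELF5 were under it on all 3 arrays, whereas TFAP2C (2338, 2740 and 2166), GATA2 and KRT7 were above it on all 3. Of 9 ectoderm and neural markers with a probe set, 3, 5 and 4 were above the floor, with summed signals of 4634, 4311 and 4651, most of it from NES (4187, 3818 and 4232).

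**Figure D1:**
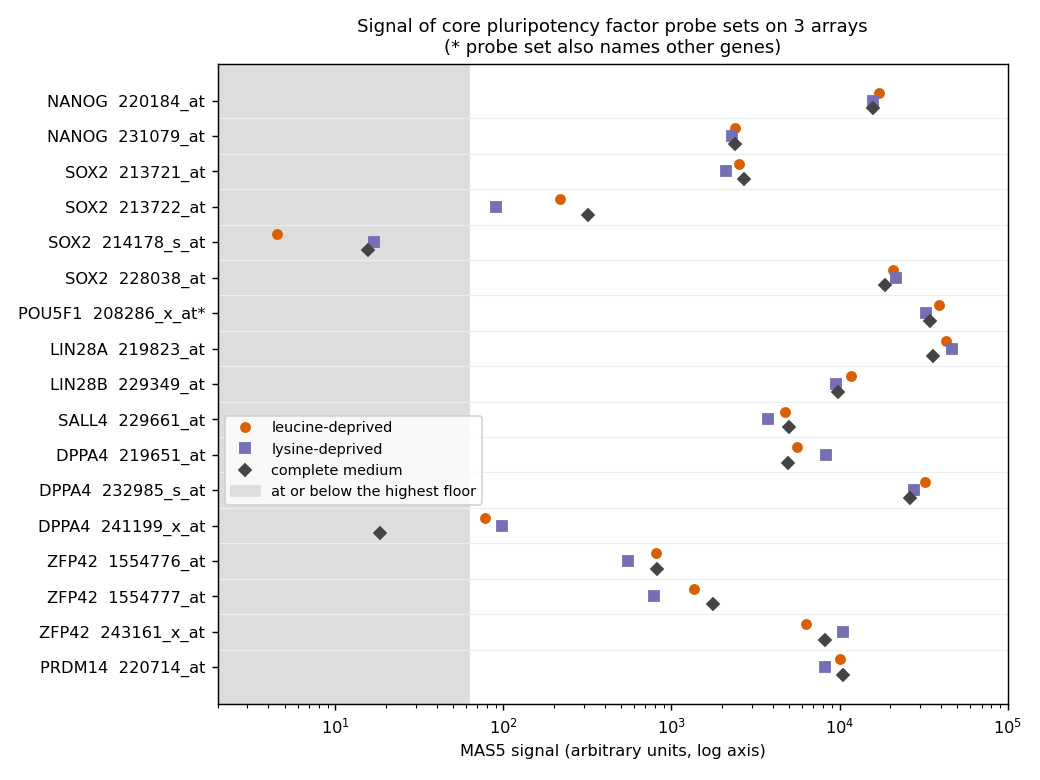
MAS5 signal (arbitrary units, log axis) of the 17 probe sets of the core pluripotency factors on the leucine-deprived, lysine-deprived and complete-medium arrays, 1 point per array. Most probe sets have the 3 points close together; SOX2 213722_at, ZFP42 1554777_at and the dim DPPA4 241199_x_at spread further, and SOX2 214178_s_at lies in the grey zone under the floor.

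NANOG and POU5F1, at the centre of the circuit, had nearly the same signal in all 3 media. NANOG, a homeodomain factor, had a signal of 17274 in leucine-deprived, 15731 in lysine-deprived and 15765 in complete medium on its brightest probe set, 220184_at. Its other probe set, 231079_at, gave 2403, 2284 and 2385 in the same order. The 2 NANOG probe sets differed from complete medium by 0.13 and 0.01 after leucine removal and by -0.00 and -0.06 after lysine removal. All are within the SD between probe sets. With arrays centred on their medians, the brightest probe set differed by 0.0 after leucine and -0.25 after lysine removal.

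The POU5F1 probe set, 208286_x_at, had a signal of 38898 in leucine-deprived, 32677 in lysine-deprived and 34600 in complete medium. These are differences of 0.17 and -0.08 over complete medium, or 0.04 and -0.33 with arrays centred on their medians. They belong to POU5F1 and its 3 named relatives together.

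SOX2, an HMG-box factor, was read by 4 probe sets that gave different pictures. The brightest, 228038_at, had a signal of 20742 in leucine-deprived, 21643 in lysine-deprived and 18755 in complete medium, higher than in complete medium by 0.15 and 0.21; with arrays centred on their medians these are 0.01 and -0.04. The next, 213721_at, had 2533, 2097 and 2698, differences of -0.09 and -0.36. The dimmer 213722_at had 216, 90.4 and 319. It was lowest after lysine removal, with a difference of -1.82 there and of -0.56 after leucine removal. The fourth, 214178_s_at, lay under the floor on every array and gives no difference.

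The LIN28 paralogues differed little between media. LIN28A had a signal of 43101 in leucine-deprived, 46553 in lysine-deprived and 36158 in complete medium. Both deprived arrays were higher than complete medium, by 0.25 and 0.36, and by 0.12 each with arrays centred on their medians. LIN28B had 11676, 9520 and 9842, differences of 0.25 and -0.05, or 0.12 and -0.30 centred. Each gene rests on 1 probe set, and none of these values exceeds the SD between probe sets of a gene, which pools any brightness. The SD of differences in the brightest group of probe sets was 0.27 after leucine and 0.35 after lysine removal. LIN28A after lysine removal (0.36) lies just past the latter.

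SALL4, a zinc finger factor that recruits the NuRD deacetylase complex, had a signal of 4752 in leucine-deprived, 3758 in lysine-deprived and 4980 in complete medium. PRDM14, a PR-domain regulator that represses differentiation genes, had 10046, 8248 and 10504. Both were close to complete medium after leucine removal (-0.07 and -0.06) and lowest after lysine removal (-0.41 and -0.35). These lysine differences are inside the SD of 0.57 between probe sets of a gene. Beside the SD of 0.35 of differences in the brightest group, SALL4 lies past it and PRDM14 at it. With arrays centred on their medians the lysine differences are -0.65 and -0.60, past 0.57. The median of all kept genes then also lies at -0.24. The leucine ones are then -0.20 each, where the median of all kept genes is -0.12. Each gene has 1 probe set.

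DPPA4 had a signal of 32271 in leucine-deprived, 27611 in lysine-deprived and 26333 in complete medium on its brightest probe set, 232985_s_at, differences of 0.29 and 0.07. With arrays centred on their medians these are 0.16 and -0.18. On 219651_at it had 5548, 8313 and 4936, so that the lysine-deprived array stood highest, 0.75 above complete medium, and the leucine-deprived array was 0.17 above it. The third probe set, 241199_x_at, gave 77.6, 98.7 and 18.4. With complete medium under the floor, its differences are bounds, at least 1.42-fold higher after leucine removal and at least 1.81-fold higher after lysine removal.

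ZFP42, a marker of undifferentiated cells that descends from the YY1 gene, had the lowest difference after leucine removal when members are read by their brightest probe sets. Its brightest probe set, 243161_x_at, had a signal of 6301 in leucine-deprived, 10424 in lysine-deprived and 8197 in complete medium, differences of -0.38 and 0.35. With arrays centred on their medians these are -0.51 and 0.10, the first past the SD of 0.49 between probe sets. The median of all kept genes is then -0.12 after leucine removal. On 1554777_at ZFP42 had 1354, 783 and 1772, differences of -0.39 and -1.18. On 1554776_at it had 814, 552 and 824, differences of -0.02 and -0.58. After lysine removal 1 ZFP42 probe set was thus higher and the other 2 lower, whereas after leucine removal none was higher.

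Counted by the brightest probe set, 0 of 9 members differed 2-fold from complete medium after leucine removal, where 4.09% of 12297 genes did so in either direction (genes with both arrays above the floor). After lysine removal the count was also 0 of 9, against 6.17% of 12227 genes. At such shares a count of 0 among 9 genes does not set the members apart. Among the brighter 6481 genes (median level and up), where the members lie, the shares were 0.879% and 1.82%. The median difference of the members was 0.15 after leucine removal (from -0.38 to 0.29, 6 of 9 above 0), beside 0.01 over the 12961 kept genes. After lysine removal it was -0.00 (from -0.41 to 0.36, 4 of 9 above 0), beside 0.00. Both deprivations are set against the same complete-medium array, so their values are not independent.

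Counted by probe set, 15 of the 17 passed the level filter and were above the floor on all 3 arrays. After leucine removal 0 of these 15 were 2-fold higher (2.80% of 21690 probe sets) and 0 were 2-fold lower (1.96%). After lysine removal 0 were 2-fold higher (4.51% of 21398) and 2 were 2-fold lower (2.75%), SOX2 213722_at at 3.53-fold and ZFP42 1554777_at at 2.26-fold. Next in size, and within 2-fold, were DPPA4 219651_at at 0.75 and ZFP42 1554776_at at -0.58. Set beside the middle 95% of probe sets of like brightness, all 15 lay inside after leucine removal and 13 after lysine removal. SOX2 213722_at lay a little under that range (-1.82, range -1.75 to 1.51) and ZFP42 1554777_at further under it (-1.18, range -0.75 to 0.81).

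**Figure D2:**
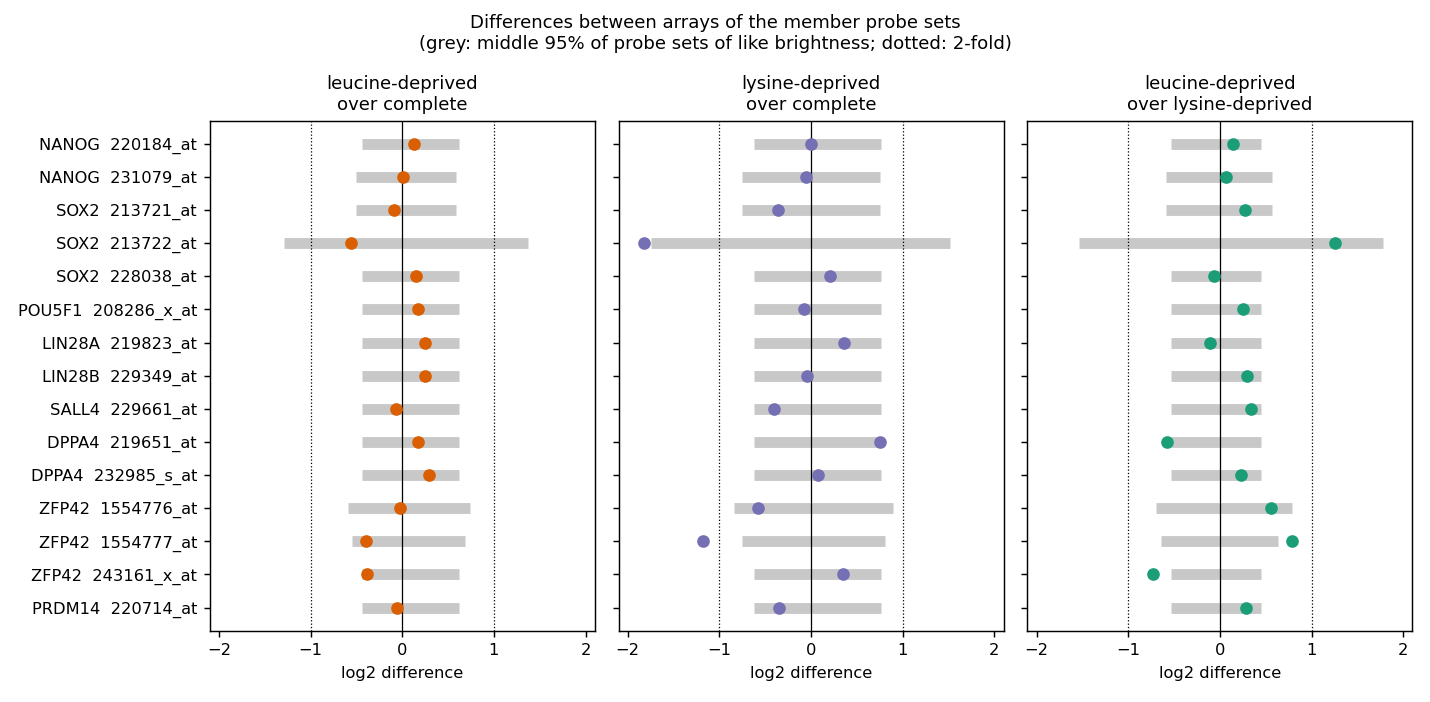
Log2 difference (x axis) of the 15 member probe sets above the floor on all arrays, in 3 panels (leucine-deprived against complete, lysine-deprived against complete, leucine-deprived against lysine-deprived), with grey bars for the middle 95% of probe sets of like brightness and dotted lines at 2-fold. All points of the first panel lie on their bars, while SOX2 213722_at and ZFP42 1554777_at lie left of theirs in the second.

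The arrays were also compared with each other, since each deprivation removes a different amino acid. By the brightest probe set 0 of 9 members differed 2-fold between leucine- and lysine-deprived medium, where 4.74% of 12198 genes did (0.370% of the brighter ones), and the median difference of the members was 0.23, beside 0.02 over all kept genes. The values ran from -0.73 for ZFP42 to 0.34 for SALL4. By probe set, 1 of 15 was 2-fold higher after leucine than after lysine removal, SOX2 213722_at (1.26, 2.39-fold), where 2.49% of 21311 probe sets were so, and 0 were 2-fold lower (3.42%). Outside the middle 95% of probe sets of like brightness lay 3 of 15: ZFP42 1554777_at above it (0.79), and ZFP42 243161_x_at (-0.73) and DPPA4 219651_at (-0.58) below it. The 2 ZFP42 probe sets thus fell outside on opposite sides.

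Disagreement between probe sets of 1 gene was large for SOX2 and ZFP42 after lysine removal and small for NANOG. The 3 SOX2 probe sets above the floor spanned 2.03 on the log2 scale after lysine removal, at percentile 95.2 among 5981 genes with several kept probe sets, whose median span was 0.63. The 3 ZFP42 probe sets spanned 1.53 (percentile 87.5), the 2 DPPA4 probe sets 0.68 (percentile 53.7) and the 2 NANOG probe sets 0.06 (percentile 4.95). After leucine removal the spans were 0.70 for SOX2, 0.37 for ZFP42, 0.12 for DPPA4 and 0.12 for NANOG, where the median span was 0.50.

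Control probe sets along the ACTB transcript moved in the same comparison. The signal of the ACTB 5′ end was 11004 in leucine-deprived, 6798 in lysine-deprived and 13773 in complete medium, differences of -0.32 and -1.02. The middle of ACTB differed by -0.10 and -0.65, and its 3′ end by 0.15 and 0.03. The ratio of 3′ to 5′ signal was 7.55, 11.2 and 5.44. GAPDH differed less along its length, with 5′ differences of -0.11 and -0.13 and 3′ differences of 0.08 and 0.08. Where along their transcripts the SOX2 and ZFP42 probe sets lie is not given in the sources used here, and the part of 3′ to 5′ signal in their values was not tested.

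**Figure D3:**
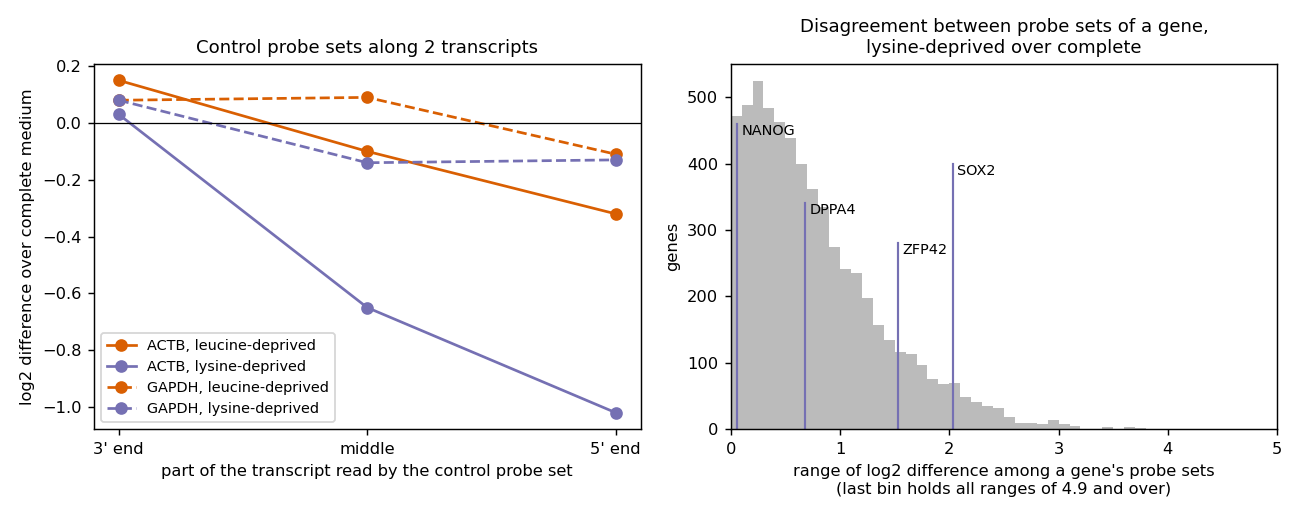
Left, log2 difference over complete medium of control probe sets at the 3′ end, middle and 5′ end of ACTB (solid) and GAPDH (dashed) for leucine- and lysine-deprived arrays; right, number of genes by the range of log2 difference among their probe sets for lysine-deprived over complete, with the 4 members that have several probe sets marked. The ACTB line of the lysine-deprived array drops to -1.02 at the 5′ end, and SOX2 (2.03) and ZFP42 (1.53) lie in the right part of the distribution.

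Other genes of the undifferentiated state had medians near 0, with 1 gene past 2-fold. Of 25 such genes in the list, 21 were measured; the median difference was -0.01 after leucine and -0.05 after lysine removal. None was 2-fold different after leucine removal, where 2.66% of all genes were 2-fold higher and 1.43% lower. After lysine removal 1 was 2-fold lower, where 4.22% of all genes were higher and 1.95% lower. That gene, GDF3, a TGF-beta family ligand, had a signal of 3949 in leucine-deprived, 2218 in lysine-deprived and 6075 in complete medium (-0.62 and -1.45, 1 probe set). NODAL, the ligand that sustains NANOG expression, had 1076, 625 and 1008, differences of 0.10 and -0.69, and 0.66 and -0.31 on its other probe set. OTX2, a homeodomain factor of primed cells, differed by 0.12 and 0.65, and HESX1 by -0.45 and -0.49. DNMT3B, a DNA methyltransferase, differed by -0.26 and -0.13 and L1TD1, an RNA-binding protein gene, by 0.13 and -0.00.

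Naive-state genes, which mark an earlier form of pluripotency, were measured for 10 of 17. By the brightest probe sets none was 2-fold different above the floor on both arrays in either deprivation, and the medians were -0.08 and -0.12. Of all genes 4.09% were 2-fold different after leucine and 6.17% after lysine removal. KLF5 differed by 0.52 and 0.42 (its other probe set by -0.82 and 0.36) and NR5A2 by -0.32 and -0.11. SUSD2 differed by -0.34 and -0.18 and STAT3 by 0.19 and -0.27. The other STAT3 probe sets differed by -0.24 and -1.55 and by -0.15 and -0.35. KLF4 differed by -0.09 and -0.20, and its dimmer probe set by -0.23 and -1.56. ESRRB, at the floor after leucine removal, was lower there by a bound (-1.21).

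In the LIN28 and let-7 list, 14 of 15 genes were measured, with medians of 0.10 and 0.02. After leucine removal 1 of the 14 was past 2-fold, where 2.66% of all genes were 2-fold higher. It was DIS3L2, the exonuclease that degrades the let-7 precursor after LIN28 has marked it, at 1.01 after leucine and 0.31 after lysine removal. Its signals were 362 in leucine-deprived, 223 in lysine-deprived and 180 in complete medium, and its other 3 probe sets were 0.17, 0.50 and 0.70 higher after leucine removal. MYC, a let-7 target, had 4402, 3315 and 2367 (0.89 and 0.49), and TUT4, the uridylyl transferase that LIN28A recruits, differed by 0.20 and -0.56. DICER1, which cuts microRNA precursors, differed by 0.22 and 0.44 on its brightest probe set, and by -0.16 and -0.00 and by -0.10 and -0.73 on its other probe sets.

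Of the NuRD and PRC2 genes, whose complexes work with SALL4 and PRDM14, 16 of 16 were measured, with medians of 0.01 and 0.05. By the brightest probe sets none was 2-fold different above the floor on both arrays. Of all genes 4.09% were so after leucine and 6.17% after lysine removal. Some dimmer probe sets were past 2-fold after lysine removal. RBBP4 217301_x_at (-1.04), MBD3 202463_s_at (-1.11) and JARID2 240674_at (-1.19) were lower, and MTA1 202247_s_at (1.17) was higher. CHD4 differed by 0.25 and 0.29, EZH2 by -0.36 and 0.16, SUZ12 by -0.19 and -0.31 and JARID2 by 0.31 and 0.14. GATAD2B, at the floor after leucine removal, was lower there by a bound (-2.01).

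Relatives of the members were measured for 10 of 16, with medians of 0.10 and 0.15. SALL1, a relative of SALL4, had signals of 1798 in leucine-deprived, 1925 in lysine-deprived and 1067 in complete medium (0.75 and 0.85), and its other probe set differed by 0.98 and 1.17. SALL3 had 1265, 1226 and 1787 (-0.50 and -0.54), and all 4 of its probe sets were lower than in complete medium in both deprivations. SALL1 and SALL3 thus lay on opposite sides of complete medium in both deprivations. SOX15 differed by 0.99 and 1.17, though its other probe set differed by -2.09, a bound, and -1.12. PRDM1 differed by 0.57 and 0.95.

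**Figure D4:**
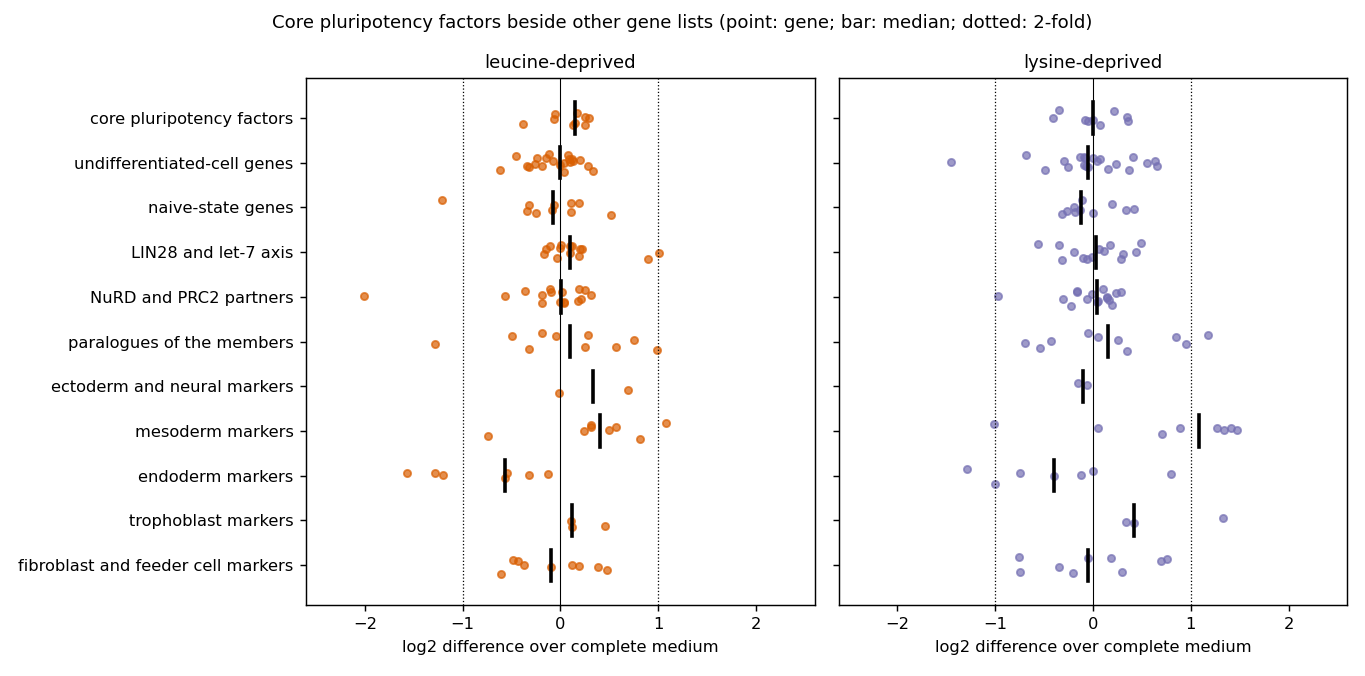
Log2 difference over complete medium of each kept gene in 11 gene lists, for the leucine- and lysine-deprived arrays. The core pluripotency factors are at the top, bars are list medians and dotted lines mark 2-fold. Differences with 1 array at the floor are bounds, drawn with the same symbol as the others and included in the medians. The core pluripotency factors span -0.38 to 0.29 after leucine and -0.41 to 0.36 after lysine removal, and the germ layer lists spread further. Most kept germ layer markers have dim probe sets, and dim probe sets spread further in general. With kept probe sets cut into 10 groups by brightness, the dimmest group had an SD of 0.85 after leucine and 0.91 after lysine removal. In the brightest group, which holds the brightest probe set of each member, it was 0.27 and 0.35. The list genes were not placed in these groups.

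Markers of cell types that could arise from or accompany stem cells were set beside the members. For mesoderm the medians were 0.41 and 1.08 over 8 kept genes. Of 6 with both arrays above the floor, HAND1 was 2-fold higher after leucine removal (1.08), where 2.66% of all genes were. After lysine removal 3 of 6 such genes were 2-fold higher, where 4.22% of all genes were. They were TBXT at 1.41 (signals of 202 in leucine-deprived, 454 in lysine-deprived and 171 in complete medium), MSX1 at 1.47 and BMP4 at 1.27. Beyond them, MESP1 was higher by a bound (1.34) and EOMES lower by a bound (-1.01). KDR differed by 0.31 and 0.70. The endoderm list had medians of -0.57 and -0.40 over 7 kept genes. After leucine removal 2 of them were 2-fold lower, where 1.43% of all genes were, HHEX at -1.28 (signals of 58.9 in leucine-deprived, 71.2 in lysine-deprived and 143 in complete medium) and LHX1 at -1.20. CER1 was lower there by a bound (-1.57), and after lysine removal HHEX was 2-fold lower, where 1.95% of all genes were, LHX1 lower by a bound (-1.29) and SOX17 0.80 higher. Of the ectoderm and neural list, with medians of 0.34 and -0.10, NES and MAP2 were kept. NES differed by -0.02 and -0.15, and MAP2 by 0.69 and -0.06 on its brightest probe set; its other was above the floor only on the lysine-deprived array, a bound of 2.06. GATA2 in the trophoblast list was 0.45 and 1.33 higher, and its other probe set differed by 0.28 and -0.36. Fibroblast and feeder cell markers had summed signals of 61158, 59411 and 67843, and their medians were -0.10 and -0.05 over 9 kept genes. The largest part of the sums came from VIM (27144, 22936 and 29146). FAP was under the floor on every array, and COL3A1, DCN, LUM and PDGFRB were above it on some arrays only. THY1 differed by -0.61 and -0.76 on its brightest probe set and by -0.20 to 0.13 on its other probe sets, and TAGLN by -0.37 and -0.75. COL1A1 differed by 0.19 and 0.69 and PDGFRA by 0.48 and 0.30 on their brightest probe sets; among their other probe sets were values on both sides of 0 for COL1A1, and -0.43 and -0.71 for PDGFRA. The part of these markers in the members' values was not tested.

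Likeness in the pair of differences picked out no small group of genes. For NANOG, 404 of 6480 genes at or above the median level lay within 0.1 (Euclidean distance over the 2 log2 differences from complete medium), the nearest being L1TD1, FLOT1 and FGD4. For SOX2 by its brightest probe set, 306 lay within 0.1, and the nearest were DNAJC10, SEPTIN2 and NUP98. With 3 arrays such likeness rests on 2 differences with a shared complete-medium array.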

How the data were processed

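The authors deposited linear signal intensity per probe set, made with MAS5 per the submitters' processing notes (version not given in the sources used here). Per the labels' protocols, cRNA labelled with biotin was prepared from 100 ng of total RNA. Of 54675 probe sets, 62 are controls, 41091 name 1 gene in the platform annotation, 1801 several and 11721 none here. Signals under the 40th percentile of their array were set to it, log2 was taken, probe sets at or above the median level were kept, and each gene took its brightest one. Members, lists and alternatives were chosen with earlier results of these data known.

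Genes named are all members; per list, up to 4 genes with the largest mean absolute difference and those past 2-fold, above the floor on every array; and the 3 genes nearest to NANOG and to SOX2. Outside this rule, GATAD2B, ESRRB, MSX1, MESP1, EOMES, LHX1, CER1, SOX17, DNMT3B and L1TD1 in its list were added after their values were seen. So were KLF4, RBBP4, MBD3, MTA1, VIM and the markers under the floor. Alternatives were median centring, quantile normalization, other floors (20th or 60th percentile, or log2(value + 32)), no level filter or the 70th percentile, means of probe sets, leaving out shared probe sets, and 1.5- and 3-fold. Scripts were tested on simulated data (Python 3.11.15, numpy 2.4.6, pandas 2.3.3, matplotlib 3.10.9). Having 1 array per medium limits the precision.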

Additional observations from a re-analysis of the deposited data

How the results depend on the processing

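No paired analysis was possible because each medium has 1 array and the results come from no test. Leaving out probe sets with _s_at or _x_at in their name gave 1 of 8 members past 2-fold after lysine removal, ZFP42, which is then read by 1554777_at (-1.18); POU5F1 has no other probe set. A threshold of 1.5-fold gave 1 member, ZFP42, for leucine- over lysine-deprived. Under every other alternative run the counts were 0, as reported. Of 288 single-member values under alternatives, 276 moved by less than the SD between probe sets of a gene and 12 by more. All 12 were of SOX2, DPPA4 or ZFP42, under means of probe sets or without _s_at or _x_at ones. Many of the 276, and the counts of 0 that rest on them, could hardly move, so neither measures stability. Other floors, the added constant and other level filters barely touch signals as bright as those of the members. Leaving out probe sets that name several genes removes only POU5F1 from the members. Means and omitted suffixes cannot shift the value of a member with 1 probe set. With the mean of its probe sets, SOX2 differed by -0.66 and ZFP42 by -0.47 after lysine removal. The members' median ranged from 0.00 to 0.16 after leucine removal, from -0.25 to 0.03 after lysine removal and from 0.18 to 0.34 between the deprivations. Median centring put the median of all kept genes at -0.12, -0.24 and 0.13, where the members' medians were 0.01, -0.25 and 0.34. The mean of probe sets without _s_at or _x_at ones was added after the data were seen.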

Other observations

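Transcripts that RefSeq places across members were read by dim probe sets. SOX2-OT, a long noncoding RNA gene that spans SOX2, had a signal of 177 in leucine-deprived, 160 in lysine-deprived and 85.7 in complete medium, 1.05 and 0.90 above complete medium on 1 probe set. LIN28B-AS1, a noncoding gene that overlaps LIN28B, had 16.7, 18.8 and 110, so that only complete medium was above the floor and the differences are bounds of -0.95 and -0.81.

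Lower values of a dimmer probe set on the lysine-deprived array, as for SOX2 213722_at, were also seen in the lists. Of 76 dimmer kept probe sets of list genes with both arrays above the floor, 7 were 2-fold lower after lysine removal. A further 3 were 2-fold higher. Among 21398 probe sets of any brightness 2.75% were 2-fold lower and 4.51% higher. After leucine removal 1 was lower and 0 were higher of 80, where 1.96% and 2.80% of 21690 probe sets were. The shares among probe sets of like brightness were not counted. The 3 examples given were picked after their values were seen. KLF4 220266_s_at had signals of 208 in leucine-deprived, 83.0 in lysine-deprived and 244 in complete medium (-1.56 after lysine removal), while its brightest probe set differed by -0.20. STAT3 208992_s_at differed by -1.55 beside -0.27 on its brightest probe set, and JARID2 240674_at by -1.19 beside 0.14. One of the 3 higher ones was MTA1 202247_s_at, with 132 in leucine-deprived, 197 in lysine-deprived and 87.7 in complete medium (1.17 after lysine removal). The cause was not tested.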
